A study of Mus musculus with 19 samples.

Results

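Ion and fluid secretion genes of the small intestine were examined as a set of 9 genes, namely *Guca2a*, *Guca2b*, *Gucy2c*, *Cftr*, *Kcne3*, *Kcnq1*, *Slc26a3*, *Slc26a6*, and *Slc9a3*, which are genes of ion transport and the guanylin pathway and were matched by symbol to the gene identifiers of the files. All 9 were found, each with 1 identifier, among 55487 genes listed, and all 9 passed the filter for low counts that left 17875 genes for testing. RNA was sequenced from intestinal crypts of 19 C57BL/6 mice with 1 library per mouse, and the study asked how loss of neurotensin (NT), a gut hormone released after a meal, affects the crypt in the fed and the fasted state. The groups were ad libitum–fed mice on standard chow (5 NT+/+, 4 NT-/-) and mice kept for 48 hours on water only (5 NT+/+, 5 NT-/-). Each group held female and male adults, and 1 fasted NT-/- mouse has no sex label. NT-/- names a knockout that is not limited to the intestine, and the study describes fed and fasted mice of both genotypes as carriers of an Lgr5-EGFP reporter allele, which the labels of these 19 mice do not list. Crypts were shaken from the proximal part of the small intestine after EDTA, a preparation that holds all epithelial cell types of the crypt and some from the villus.

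The guanylin pathway sets how much salt and water the gut epithelium secretes. Guanylin (*Guca2a*) and uroguanylin (*Guca2b*) are small peptides released by epithelial cells, and they bind guanylate cyclase C (*Gucy2c*), an apical receptor that makes cyclic GMP. Cyclic GMP favors opening of the CFTR chloride and bicarbonate channel and restrains the sodium/proton exchanger NHE3 (*Slc9a3*), so that more fluid stays in the lumen. Chloride exit through CFTR needs potassium recycling at the basolateral membrane, which the KCNQ1 channel with its subunit KCNE3 provides, and the exchangers SLC26A3 and SLC26A6 trade luminal chloride for bicarbonate.

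The fasted crypts differed from the fed ones in most of these genes. *Guca2b*, *Slc26a3*, and *Gucy2c* were higher after fasting in both genotypes, at 2.54, 1.79, and 1.31 times the fed level in NT+/+ mice and 3.05, 1.91, and 1.44 times in NT-/- mice. *Kcne3* was 2.22-fold lower in NT+/+ mice and 3.53-fold lower in NT-/- mice. In NT+/+ mice *Kcnq1* was also higher and *Cftr* lower, and in NT-/- mice *Slc26a6* was higher. No difference by genotype passed the test for any of the 9 genes in either feeding state. By edgeR's quasi-likelihood test, adjusted over all genes tested, 6 of the 9 genes passed an adjusted p of 0.05 for fasting in NT+/+ mice (4 higher, 2 lower), where 21.6% of all genes tested passed (11.2% higher, 10.4% lower), and 5 of the 9 passed in NT-/- mice (4 higher, 1 lower), where 25.2% of all genes passed (12.5% higher, 12.6% lower). Unadjusted p was under 0.05 for 8 of the 9 in each genotype, beside 34.1% and 36.5% of all genes. The median log2 fold change of the 9 genes was 0.37 in NT+/+ and 0.25 in NT-/- mice, beside -0.01 and -0.02 over all genes tested. The 2 fasting comparisons use separate mice, whereas each shares its groups with the genotype comparisons.

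**Figure D1:**
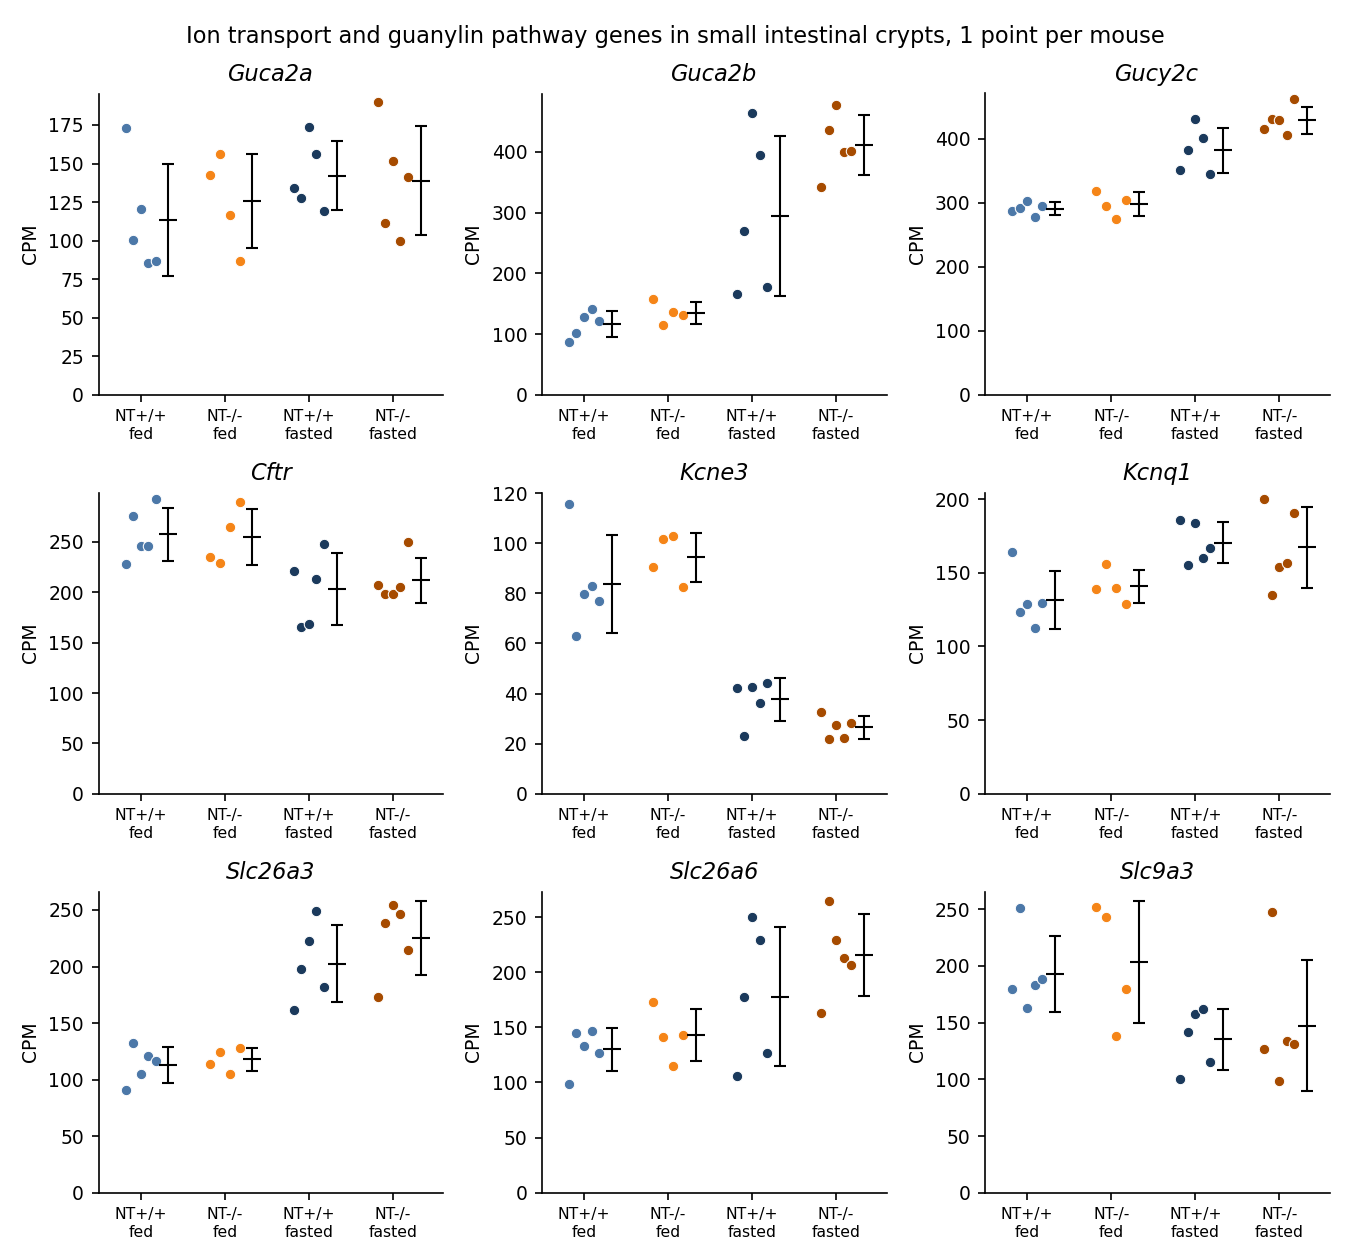
Level of each of the 9 genes in CPM (counts scaled to library size, vertical axes from 0) by group, with 1 point per mouse and the mean and SD in black beside each group (n = 5, 4, 5, and 5 mice). *Kcne3* lies at 62.9 to 116 CPM in the fed mice and at 21.9 to 44.1 CPM in the fasted mice, whereas *Guca2a* overlaps in all 4 groups.

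The libraries held between 9059457 and 35068711 counts (median, 18541819), and each of the 9 genes had between 193 and 10812 counts in every mouse. Levels are given in CPM, counts scaled to library size after TMM normalization. As a check of the labels, *Nts*, the neurotensin gene, was at 4.98 to 8.59 CPM in NT+/+ mice and at 0.144 to 0.793 CPM in NT-/- mice. The fasted NT+/+ replicate 5 carries the genotype label of the other genotype beside an NT+/+ title, and its *Nts* level was 5.43 CPM. It was kept under its title, and results without it or with it moved are given where they differ. Fed NT+/+ replicate 1 stood apart from its group: chi-square per degree of freedom against the other 4 fed NT+/+ mice was 190 to 294, where every other pair of mice in a group lay at 15.9 to 74.1, and its TMM factor of 0.867 was the lowest of the 19. It had the highest *Guca2a*, *Kcne3*, and *Kcnq1* levels and the lowest villus marker sum of the fed NT+/+ mice. Without it, 7 of the 9 genes passed for fasting in NT+/+ mice, the added gene being *Guca2a*, and 5 in NT-/- mice. The summed level of 10 villus enterocyte markers, a sign of mature absorptive cells, was 4730 to 10227 CPM in fed NT+/+, 7284 to 10659 in fed NT-/-, 10303 to 19972 in fasted NT+/+, and 17780 to 23648 in fasted NT-/- mice. The markers called higher after fasting were 8 of 10 in NT+/+ and 10 of 10 in NT-/- mice, none of them at 0. Of 7 stem and cycling cell markers, 3 and 5 were called lower. Summed fibroblast and smooth muscle markers reached at most 7.67 CPM in any mouse. A higher share of a cell type in the sample and more RNA per cell cannot be told apart in bulk crypts, for any gene below.

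Of the ligands, uroguanylin passed the test for fasting in both genotypes. *Guca2b* was at 86.5, 102, 128, 141, and 122 CPM in the fed NT+/+ mice and at 165, 270, 465, 394, and 177 CPM in the fasted ones. Every fasted mouse lay above every fed mouse, but replicates 1 and 5 of the fasted group were close to the fed range and the other 3 were well above it. The fed NT-/- mice were at 158, 115, 136, and 131 CPM and the fasted NT-/- mice at 343, 437, 477, 400, and 401 CPM, with no fasted mouse near the fed range. The log2 fold change with fasting was 1.34 (SE, 0.22; edgeR adjusted p = 0.000298) in NT+/+ and 1.61 (SE, 0.24; adjusted p = 9.3e-05) in NT-/- mice. The villus enterocyte marker sum was also lowest in replicates 1 and 5 of the fasted NT+/+ group, at 10303 and 11971 CPM, whereas the other 3 mice of the group were at 17774 to 19972 CPM.

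Guanylin did not pass the test in either genotype. *Guca2a* was at 173, 100, 120, 85.5, and 86.9 CPM in fed NT+/+ and 134, 128, 174, 156, and 119 CPM in fasted NT+/+ mice. In NT-/- mice the fed values were 143, 156, 117, and 87.1 CPM and the fasted values 190, 112, 151, 99.9, and 141 CPM. Fed and fasted mice overlapped in both genotypes. The log2 fold change was 0.33 (95% confidence interval, -0.09 to 0.75; adjusted p = 0.265) in NT+/+ and 0.15 (95% confidence interval, -0.30 to 0.59; adjusted p = 0.671) in NT-/- mice, intervals that leave room for a rise of moderate size. The NT+/+ value depended on 1 fed mouse: without fed NT+/+ replicate 1, which had the highest fed level, it was 0.53 with an adjusted p of 0.0488.

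The ligands were also compared within each mouse. Per kilobase of effective transcript length, the ratio of *Guca2b* to *Guca2a* was 1.10 ± 0.42 (SD, n = 5) in fed NT+/+ and 1.10 ± 0.31 (SD, n = 4) in fed NT-/- mice, so that both ligand messages were about equally abundant in fed crypts. After fasting it was 1.96 ± 0.62 (SD, n = 5) in NT+/+ and 3.07 ± 0.87 (SD, n = 5) in NT-/- mice. The single values were 0.487 to 1.60 in fed and 1.20 to 2.61 in fasted NT+/+ mice, which overlap, and 0.715 to 1.47 in fed and 1.76 to 3.91 in fasted NT-/- mice, which do not. The ratio is a description and was not tested.

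The ligand genes are neighbors. In GRCm38, *Guca2a* (ENSMUSG00000023247) lies on the plus strand at chr4:119637704-119639471 and *Guca2b* (ENSMUSG00000032978) on the minus strand at chr4:119656607-119658954, with 17135 bases between them, so the genes point toward each other and their start sites are at the outer ends. Their promoters are shown because the adjacent genes differed in their values with fasting, and the *Slc26a3* promoter is shown because that gene was also higher. Each sequence is from RefSeq (GRCm38.p6), runs 5′ to 3′ on the strand of its gene, and ends before the nearest annotated exon base. Positions are counted back from the RefSeq start site, which follows the printed end by 28 bases for *Guca2a*, 9 for *Guca2b*, and 2 for *Slc26a3*. The window is chr4:119637482-119637703 for *Guca2a*, chr4:119658955-119659195 for *Guca2b*, and chr12:31437969-31438216 for *Slc26a3*. The last of these lies inside the annotated span of *Slc26a3* (chr12:31390871-31473917, plus strand), since the annotation also has a start farther upstream, and it precedes only the start that RefSeq uses. Capitals mark matches, on either strand, to the 5 motifs searched. These were the HNF1 half-site, written GTTAAT, the site of GATA factors, which reads AGATAA, the site of CDX factors, which reads TTTATG, the TATA box in the form TATAAA, and GGGCGG, the GC box bound by Sp1 factors.
Guca2a: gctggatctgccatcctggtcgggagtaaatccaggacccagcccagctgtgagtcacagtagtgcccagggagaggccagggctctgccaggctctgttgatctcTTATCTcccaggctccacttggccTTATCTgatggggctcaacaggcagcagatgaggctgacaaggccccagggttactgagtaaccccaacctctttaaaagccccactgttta
Guca2b: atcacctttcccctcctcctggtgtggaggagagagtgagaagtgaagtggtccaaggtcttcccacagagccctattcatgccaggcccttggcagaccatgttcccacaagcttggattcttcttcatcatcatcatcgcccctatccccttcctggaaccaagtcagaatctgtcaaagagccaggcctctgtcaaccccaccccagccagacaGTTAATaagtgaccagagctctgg
Slc26a3: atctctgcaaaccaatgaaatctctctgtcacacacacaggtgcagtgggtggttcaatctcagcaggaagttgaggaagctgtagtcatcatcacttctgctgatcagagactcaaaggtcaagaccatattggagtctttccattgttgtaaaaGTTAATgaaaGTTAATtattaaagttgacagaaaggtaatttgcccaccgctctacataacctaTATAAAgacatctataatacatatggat
The *Guca2a* window held the GATA letters in reverse orientation, as TTATCT, at 144 and 120 bases before the start site, and the *Guca2b* window held none. The *Guca2b* window held the HNF1 letters 33 bases before the start, and the *Slc26a3* window held them at 94 and 84 bases with a TATA box at 30 bases. Among 32851 RefSeq promoter windows, GTTAAT was present in 6.4%, AGATAA in 10%, TTTATG in 10.8%, TATAAA in 12.4%, and GGGCGG in 32.7%. Those windows were uncut, at 250 bases each, and so longer than the printed ones, which hold 222 (*Guca2a*), 241 (*Guca2b*), and 248 (*Slc26a3*) bases. No overlap between matches of different motifs occurred in the sequences printed. These matches describe letters and not binding. Promoter windows were matched for 7 of the 9 genes, without *Gucy2c* and *Kcnq1*. The *Cftr* window was the richest in GC of the 7, at 76.4% beside a median of 52.4% over all promoters, and held 6 GC boxes, 3 of them spaced 4 bases apart.

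The receptor for both peptides was higher in fasted crypts, with little spread. *Gucy2c* (chr6:136697284-136781765, minus strand) was at 287, 292, 303, 277, and 294 CPM in fed NT+/+ and at 351, 382, 431, 401, and 345 CPM in fasted NT+/+ mice. In NT-/- mice the fed values were 319, 294, 274, and 305 CPM and the fasted values 416, 432, 429, 406, and 461 CPM. Fed and fasted mice did not overlap in either genotype. The log2 fold changes were 0.39 (SE, 0.07; edgeR adjusted p = 0.000507) and 0.52 (SE, 0.07; adjusted p = 4.93e-05). Relative to its mean, the receptor was the least variable of the 9 genes in fed NT+/+ mice, with an SD of 9.65 around a mean of 291 CPM.

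*Cftr*, the channel that carries chloride and bicarbonate into the lumen, did not follow the receptor. Fed NT+/+ mice were at 228, 276, 246, 246, and 293 CPM and fasted NT+/+ mice at 221, 166, 169, 213, and 248 CPM. Fed NT-/- mice were at 235, 230, 265, and 289 CPM and fasted NT-/- mice at 207, 199, 198, 205, and 250 CPM. Fasted mice were lower on average, but fed and fasted mice overlapped in both genotypes, and in fasted NT-/- mice replicate 5 stood well above the other 4. *Cftr* fell by 0.34 on the log2 scale in NT+/+ mice (SE, 0.11; adjusted p = 0.0319), and the difference in NT-/- mice was -0.27 (SE, 0.12; adjusted p = 0.101). The call in NT+/+ mice was lost without fed replicate 2, fed replicate 5, fasted replicate 2, or fasted replicate 3, with adjusted p between 0.0691 and 0.0993, and when only the 2 groups compared were fitted (adjusted p = 0.0625). Without fasted NT-/- replicate 5 the NT-/- difference was -0.33, with an adjusted p of 0.0478. With sex as a covariate (the mouse with no sex label left out) it was -0.33, with an adjusted p of 0.0488. With the number in the deposited files' names as a block, the edgeR adjusted p was 0.0029 in NT+/+ and 0.0431 in NT-/- mice. With the title number as a block it was 0.00639 and 0.0126. The summed level of 7 stem and cycling cell markers was also lower in fasted mice, at 2957 to 3946 CPM in fed and 1667 to 2920 CPM in fasted NT+/+ mice. Of the 7 genes, 3 were called lower in NT+/+ mice. The sum joins stem cell genes with cell cycle genes. By quantitative PCR, the study reported higher *Lgr5* and *Ascl2*, stem cell genes of this list, in fasted NT+/+ crypts. The part of the marker genes in the *Cftr* difference was not tested.

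The genes of the basolateral potassium channel differed in direction in NT+/+ mice. *Kcne3*, which holds the KCNQ1 pore open in intestinal cells, was at 116, 62.9, 79.9, 83.1, and 76.9 CPM in fed NT+/+ and at 42.1, 23.1, 42.8, 36.0, and 44.1 CPM in fasted NT+/+ mice. It was at 90.4, 102, 103, and 82.5 CPM in fed NT-/- and at 32.6, 21.9, 27.6, 22.1, and 28.3 CPM in fasted NT-/- mice. All 10 fasted mice lay below all 9 fed mice. *Kcne3* fell by 1.15 on the log2 scale in NT+/+ mice (SE, 0.17; adjusted p = 6.41e-05; by 1.01 without fed NT+/+ replicate 1) and by 1.82 in NT-/- mice (SE, 0.18; adjusted p = 7.74e-07), and in NT-/- mice it ranked 49 of 17875 genes by p.

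*Kcnq1*, the pore itself, went the other way in NT+/+ mice. It was at 164, 123, 129, 112, and 129 CPM in fed and 186, 155, 184, 160, and 167 CPM in fasted NT+/+ mice, with 1 fed mouse, replicate 1, inside the fasted range. In NT-/- mice it was at 139, 156, 140, and 128 CPM in fed and 200, 135, 154, 156, and 191 CPM in fasted mice, which overlapped. *Kcnq1* rose by 0.37 on the log2 scale in NT+/+ mice (SE, 0.11; adjusted p = 0.0175), and the difference in NT-/- mice was 0.25 (SE, 0.11; adjusted p = 0.121). Without fed NT+/+ replicate 1 the NT+/+ value was 0.47 (adjusted p = 0.00385). The NT+/+ call was lost without fed replicate 4 (0.32; adjusted p just above 0.05), and the NT-/- difference passed without fasted NT-/- replicate 2 (0.32; adjusted p = 0.0461). Per kilobase, the ratio of *Kcne3* to *Kcnq1* was 1.52 ± 0.22 (SD, n = 5) in fed NT+/+, 1.61 ± 0.08 (SD, n = 4) in fed NT-/-, 0.554 ± 0.140 (SD, n = 5) in fasted NT+/+, and 0.421 ± 0.062 (SD, n = 5) in fasted NT-/- mice. The *Kcne3* message was thus above the *Kcnq1* message in every fed mouse (at least 1.26) and below it in every fasted mouse (at most 0.697). Protein was not measured, and reads of an antisense RNA described below may enter the *Kcnq1* level.

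**Figure D2:**
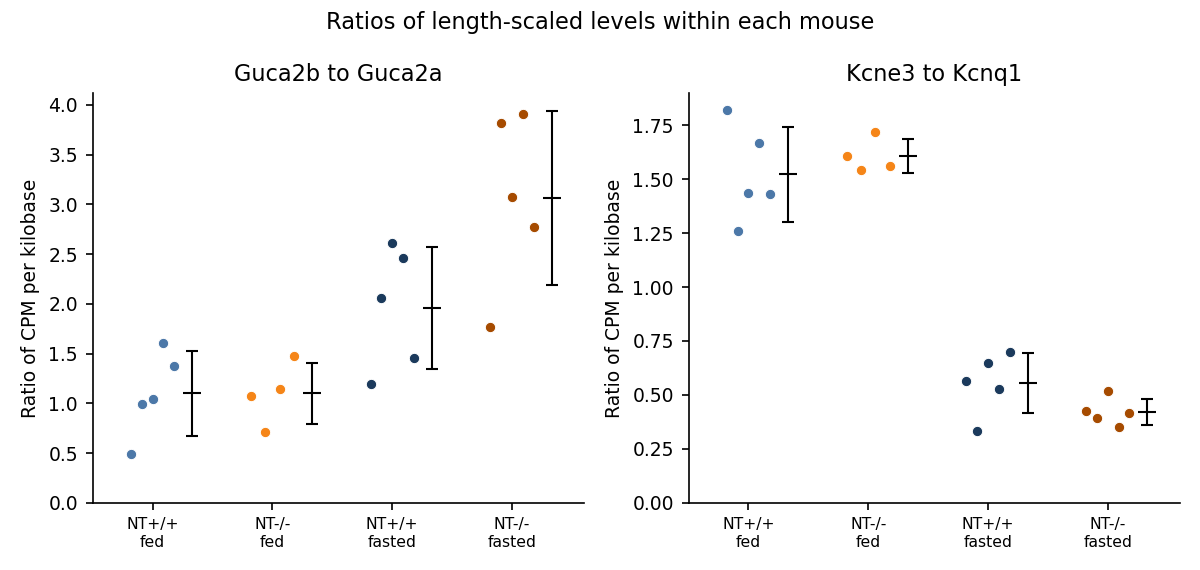
Ratio of length-scaled levels (CPM per kilobase, axes from 0) within each mouse for *Guca2b* to *Guca2a* and *Kcne3* to *Kcnq1*, with 1 point per mouse and the mean and SD in black. The *Kcne3* to *Kcnq1* ratio lies above 1 in all 9 fed mice and below 1 in all 10 fasted mice.

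Genes that share genomic positions with the potassium channel genes were read beside them, because the strand setting of the counting is not given in the sources used here. The antisense RNA *Kcnq1ot1* lies inside *Kcnq1* (chr7:143106362-143427042) on the opposite strand and had mean levels of 249, 242, 249, and 237 CPM in fed NT+/+, fed NT-/-, fasted NT+/+, and fasted NT-/- mice, above the level of *Kcnq1* itself. Its log2 fold change with fasting was 0.00 (SE, 0.22) in NT+/+ and -0.03 (SE, 0.24) in NT-/- mice. *Gm34821*, antisense across *Kcne3* (chr7:100176502-100184869), averaged 0.718, 0.819, 0.346, and 0.212 CPM in the same order and had log2 fold changes of -1.03 (adjusted p = 0.0636) and -1.82 (adjusted p = 0.00416), close to those of *Kcne3* at a far lower level. Reads from exon bases that a gene shares with its antisense partner cannot be told apart if strand was not used. The overlap was read from whole gene spans, and whether exons share bases was not examined. At these levels the question concerns *Kcnq1* more than *Kcne3*. Antisense *Gm15592* and the pseudogene *Gm15595* within *Cftr* stayed at means of 2.98 to 6.09 CPM, with adjusted p of at least 0.537.

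Of the apical chloride/bicarbonate exchangers, *Slc26a3* passed the test for fasting in both genotypes and *Slc26a6* in NT-/- mice only. *Slc26a3* (down-regulated in adenoma, mutated in congenital chloride diarrhea) was at 90.6, 132, 105, 121, and 116 CPM in fed NT+/+ and at 161, 198, 222, 249, and 182 CPM in fasted NT+/+ mice. It was at 114, 125, 105, and 128 CPM in fed NT-/- and at 173, 238, 254, 246, and 215 CPM in fasted NT-/- mice. All fasted mice lay above all fed mice. The log2 fold changes were 0.84 (SE, 0.12; adjusted p = 8.39e-05) and 0.93 (SE, 0.13; adjusted p = 4.93e-05).

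*Slc26a6*, a broader anion exchanger that also carries oxalate, was at 98.3, 145, 134, 147, and 127 CPM in fed and 106, 178, 250, 229, and 127 CPM in fasted NT+/+ mice. Fasted replicates 1 and 5 lay inside the fed range, the same 2 mice that were lowest for *Guca2b* and for the villus markers. In NT-/- mice the values were 173, 141, 115, and 143 CPM fed and 163, 265, 229, 213, and 207 CPM fasted, with 1 fasted mouse inside the fed range. The log2 fold change was 0.45 (SE, 0.19; adjusted p = 0.103) in NT+/+ and 0.59 (SE, 0.21; adjusted p = 0.0425) in NT-/- mice. Neither call was firm: the NT+/+ difference passed without fasted replicate 1 (0.59; adjusted p = 0.0196) or fasted replicate 5 (0.55; adjusted p = 0.0480). The NT-/- call was lost in 9 of the 19 fits that left out 1 mouse, namely fed NT-/- replicates 2, 3, and 4, fasted NT-/- replicates 2, 3, 4, and 5, and fed NT+/+ replicates 3 and 5, with adjusted p of 0.0502 to 0.134. It was also lost with sex as a covariate (the mouse with no sex label left out) (0.60; adjusted p = 0.0642) and with the mouse of conflicting labels counted as NT-/- (0.49; adjusted p = 0.102). With the number in the deposited files' names as a block the call was lost too (0.49; edgeR adjusted p = 0.0596). With the title number as a block it was kept (0.59; edgeR adjusted p = 0.0307).

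*Slc9a3*, the sodium/proton exchanger that absorbs salt, had lower means in fasted mice but did not pass the test. It was at 180, 251, 163, 183, and 188 CPM in fed NT+/+ and at 101, 141, 158, 162, and 115 CPM in fasted NT+/+ mice, which came within 1 CPM of each other without overlapping. In NT-/- mice it was at 252, 243, 139, and 180 CPM fed and 127, 247, 98.2, 134, and 131 CPM fasted, where fasted replicate 2 lay with the highest fed mice. The log2 fold changes were -0.51 (SE, 0.21; adjusted p = 0.0918) and -0.47 (SE, 0.22; adjusted p = 0.135). That 1 mouse decided the NT-/- result: without fasted NT-/- replicate 2 the log2 fold change was -0.73 (SE, 0.19; adjusted p = 0.00776), and the NT+/+ value passed as well (-0.51; adjusted p = 0.0329), since all mice share the estimate of spread. Counting genes whose fed and fasted CPM did not overlap gave 5 of 9 in NT+/+ mice, beside 14.6% of all genes tested, and 4 of 9 in NT-/- mice, beside 21.3%. *Slc9a3* is among those 5 by CPM only. Its effective length was 3710 to 3994 bases in fed and 2899 to 3705 bases in fasted NT+/+ mice. Per kilobase, these mice were at 43.9 to 67.0 fed and 28.8 to 54.5 fasted, which overlap.

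**Figure D3:**
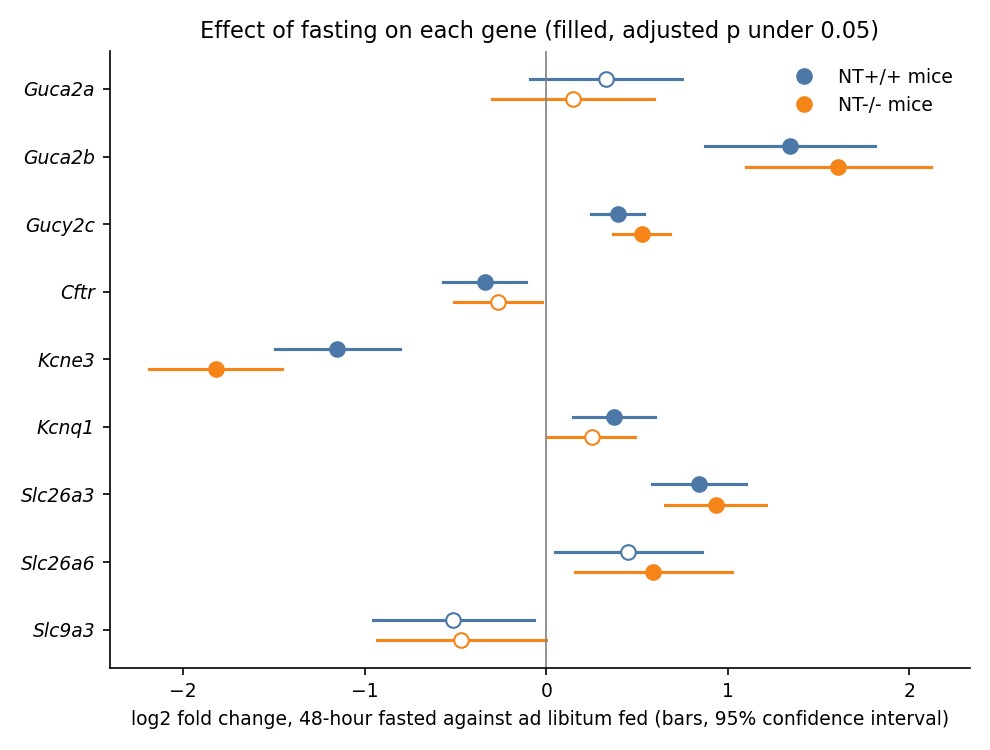
Log2 fold change of fasted against ad libitum–fed mice for each gene (horizontal axis) with its 95% confidence interval from edgeR, in NT+/+ mice (blue) and NT-/- mice (orange). Filled points passed an adjusted p of 0.05; *Guca2b* reaches 1.34 and 1.61, *Kcne3* reaches -1.15 and -1.82, and the intervals of the genotypes overlap for every gene.

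No difference between NT-/- and NT+/+ mice passed the test. In ad libitum–fed mice 0 of 9 passed the adjusted test and 0 had an unadjusted p under 0.05, where 0.00559% of all genes tested passed (1 gene, *Nts*) and 1.67% had an unadjusted p under 0.05; DESeq2 also called 0 of the 9. The largest fed difference was *Guca2b* at 0.22 on the log2 scale (95% confidence interval, -0.27 to 0.71), and the narrowest interval was that of *Gucy2c*, 0.04 (95% confidence interval, -0.12 to 0.19). In fasted mice 0 of 9 passed with edgeR or DESeq2 and 3 had an unadjusted p under 0.05, beside 0.00559% and 9.14% of all genes. These were *Kcne3*, at -0.50 in NT-/- against NT+/+ mice (95% confidence interval, -0.85 to -0.15; unadjusted p = 0.00791, edgeR adjusted p = 0.349), *Gucy2c* at 0.17 (0.02 to 0.31; adjusted p = 0.463), and *Guca2b* at 0.48 (0.02 to 0.94; adjusted p = 0.514). Individual mice overlapped between genotypes for all 9 genes in both feeding states, where 0.694% of all genes in fed and 1.56% in fasted mice did not overlap. With the fasted mouse of conflicting labels counted as NT-/-, these differences were -0.28, 0.08, and 0.20.

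The effect of fasting was compared between genotypes by the interaction term of the same fit. None of the 9 genes passed, beside 0% of all genes tested, and 1 of 9 had an unadjusted p under 0.05, beside 2.71% of all genes; DESeq2 called 0 of the 9. That gene was *Kcne3*, whose fall was greater in NT-/- mice by a log2 difference of -0.67 (SE, 0.24; 95% confidence interval, -1.17 to -0.17; unadjusted p = 0.0112, edgeR adjusted p = 1.00). With the mouse of conflicting labels moved, the *Kcne3* difference was -0.46 (SE, 0.28). For the genes called in 1 genotype only, the interaction was 0.07 for *Cftr* (95% confidence interval, -0.26 to 0.41), -0.12 for *Kcnq1* (-0.45 to 0.21), and 0.14 for *Slc26a6* (-0.45 to 0.72), each with an edgeR adjusted p of 1.00, so a difference between genotypes in these genes was not shown.

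Compared per kilobase of effective length, the peptide messages were the most abundant of the set in every group. In fed NT+/+ mice the order of the mean levels in CPM per kilobase was *Guca2a* (228), *Guca2b* (227), *Slc26a6* (119), *Kcne3* (81.5), *Gucy2c* (75.3), *Kcnq1* (53.1), *Slc9a3* (50.3), *Cftr* (46.3), and *Slc26a3* (42.9). Neighbors in this order overlapped between mice except *Guca2b* against *Slc26a6* and *Gucy2c* against *Kcnq1*. In fasted NT-/- mice the order was *Guca2b* (808), *Guca2a* (279), *Slc26a6* (197), *Gucy2c* (111), *Slc26a3* (83.8), *Kcnq1* (64.3), *Slc9a3* (41.0), *Cftr* (39.3), and *Kcne3* (27.0). These orders differ in both feeding and genotype, but the places of *Kcne3* and *Slc26a3* were the same in both genotypes. *Kcne3* was in the fourth place in fed mice and the last in fasted mice. *Slc26a3* was in the last place in fed mice and the fifth in fasted mice. Fed NT-/- mice had means of 92.0 for *Kcne3* and 44.6 for *Slc26a3*, and fasted NT+/+ mice had 76.3 for *Slc26a3*. In fasted NT+/+ mice *Kcne3* was also last, at 38.0 beside 38.2 for *Cftr*, a difference far inside the spread between mice. The length-scaled ratio of *Cftr* to *Slc9a3*, the secretory channel to the absorptive exchanger, averaged 0.934 and 0.956 in fed and 1.00 and 1.04 in fasted NT+/+ and NT-/- mice, and single values overlapped between all groups.

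Within groups, the genes varied between mice in different ways. Deviations of log2(CPM + 1) from the group means over the 19 mice, given as a description, correlated with those of the summed villus markers at r = 0.87 for *Slc26a6*, 0.83 for *Guca2b*, 0.76 for *Slc26a3*, 0.63 for *Gucy2c*, and 0.39 for *Slc9a3*. They correlated at -0.62 for *Kcnq1*, -0.57 for *Kcne3*, -0.37 for *Guca2a*, and -0.10 for *Cftr*. Without fed NT+/+ replicate 1 the last 4 were -0.45, -0.40, -0.07, and -0.33, and the first 5 were 0.88, 0.85, 0.70, 0.74, and 0.44. The other marker sums were also related to these genes. With the stem and cycling markers *Cftr* correlated at 0.64 and *Slc26a6* at -0.72 (0.65 and -0.77 without that mouse). With the Paneth cell markers *Slc26a3* correlated at -0.83, *Kcnq1* at 0.66, and *Guca2a* at 0.52, and with the goblet cell markers *Guca2a* at 0.51. Without that mouse *Guca2a* was at 0.52 and 0.75 with these lists, *Slc26a3* at -0.85, and *Kcnq1* at 0.69. The genes of a mouse share its library, its scaling, and the makeup of its isolated crypts, all of which can enter these values. Replicate 1 had the highest Paneth marker sum of its group in every group but fed NT+/+. In fasted NT-/- mice it was at 42356.5 CPM, where the other mice lay at 17579 to 23301 CPM. The weight of the replicate 1 mice in these correlations was not tested beyond leaving out the fed NT+/+ mouse. Between the members, *Guca2b* and *Slc26a6* correlated at 0.89, *Guca2a* and *Kcnq1* at 0.75, *Kcne3* and *Kcnq1* at 0.71, and the ligand genes at 0.02, and without that mouse at 0.88, 0.64, 0.61, and 0.22.

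The tested genes most like each member by the same measure, over 17851 genes and 19 mice, differed from member to member. Closest to *Guca2b* were *Myo15b* (r = 0.95), *Apoa1* (0.94), and *Gpt* (0.94), and closest to *Slc26a6* were *Abcg5* (0.97), an intestinal sterol exporter subunit, *Slc15a1* (0.96), the peptide transporter, and *Myo15b* (0.96). Closest to *Slc26a3* were *Gm12002* (0.95), *Prrt1* (0.93), and *Gm43094* (0.92), and closest to *Gucy2c* were *Mast2*, *Sec31a*, and *Eif2ak1* (each 0.92). Closest to *Guca2a* were *Hid1* (0.92), *Kcnh3* (0.89), and *Capn9* (0.89), closest to *Kcnq1* were *Mgat4b* (0.94), *Acly* (0.93), and *Pygb* (0.91), and among those closest to *Kcne3* were *Dusp7* (0.87) and *Mphosph9* (0.86). For *Cftr* they were *A730017L22Rik* (0.85), *Yes1* (0.85), and *Zbtb38* (0.83), and for *Slc9a3* *Trim40* (0.84), *Mxd1* (0.83), and *Il33* (0.83).

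**Figure D4:**
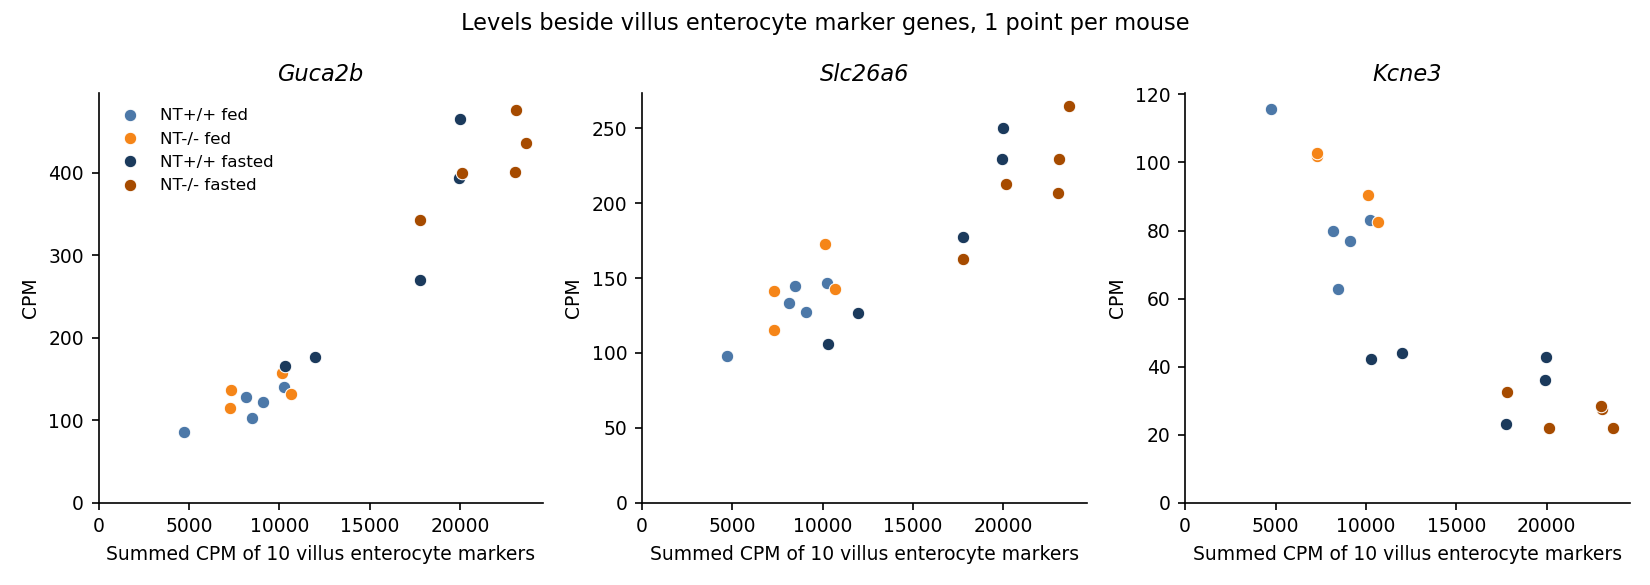
Levels of *Guca2b*, *Slc26a6*, and *Kcne3* (CPM, vertical axes) against the summed CPM of 10 villus enterocyte markers (horizontal axis), 1 point per mouse, colored by group. The 2 fasted NT+/+ mice at 10303 and 11971 summed CPM lie inside the fed range for *Slc26a6*. For *Guca2b* they lie at 165 and 177 CPM, just above the highest fed mouse (158 CPM). For *Kcne3* they lie at 42.1 and 44.1 CPM, below every fed mouse. The mouse at 11971 summed CPM is the mouse of conflicting labels.

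The 2 fasted NT+/+ mice with the lowest villus marker sums were set beside the fed mice gene by gene. They were replicate 1 and replicate 5, the latter being the mouse of conflicting labels. Their sums of 10303 and 11971 CPM were above the highest fed NT+/+ value of 10227 CPM, so they were not matched to the fed mice. The sum of 11971 CPM was also above the highest fed NT-/- value of 10659 CPM. The *Slc26a6* levels of these 2 fasted mice, 106 and 127 CPM, lay inside the fed range. Their *Guca2b* levels of 165 and 177 CPM, *Gucy2c* levels of 351 and 345 CPM, and *Slc26a3* levels of 161 and 182 CPM were above every fed mouse, and their *Kcne3* levels of 42.1 and 44.1 CPM were below the lowest fed mouse of either genotype, 62.9 CPM. The part of the villus markers in any of these differences was not tested.

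Of 52 further genes of ion and fluid transport in 8 lists, 47 could be tested. For fasting, 12 were higher and 5 lower in NT+/+ mice and 18 higher and 3 lower in NT-/- mice, with a median log2 fold change of 0.08 and 0.19. Over all genes tested 11.2% were higher and 10.4% lower in NT+/+ mice and 12.5% and 12.6% in NT-/- mice, with medians of -0.01 and -0.02, which are the shares to read beside the count of each list below. By edgeR and by DESeq2, 0 of the 47 passed for genotype in either feeding state or for the interaction. An unadjusted p under 0.05 was seen for 1, 13, and 1 of the 47 in fed mice, in fasted mice, and for the interaction, beside 1.67%, 9.14%, and 2.71% of all genes tested. The called gene with the greatest change was *Sgk1*, a kinase that stimulates sodium channels and exchangers, with log2 fold changes of 3.04 (SE, 0.45; edgeR adjusted p = 8.07e-05) and 3.16 (SE, 0.49; adjusted p = 0.000104) and mean levels of 13.6 and 15.2 CPM in fed and 111 and 137 CPM in fasted NT+/+ and NT-/- mice. Water channels rose in 3 of 6 genes in NT+/+ and 4 of 6 in NT-/- mice. *Aqp3* had log2 fold changes of 1.79 (adjusted p = 0.00399) and 2.18 (adjusted p = 0.00129), and *Aqp8*, at mean levels of only 0.125 and 0.644 CPM in fed and fasted NT-/- mice, 2.29 (adjusted p = 0.00254) in NT-/- mice and 0.99 (adjusted p = 0.172) in NT+/+ mice. Sodium absorption genes and their scaffolds rose in 4 of 8 with 1 lower in NT+/+ and in 5 of 8 in NT-/- mice, led by the neutral amino acid cotransporter *Slc6a19* at 1.62 (adjusted p = 0.000567) and 1.86 (adjusted p = 0.000301).

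Carriers that load the cell with chloride or bicarbonate at the basolateral side gave 2 higher and 1 lower of 7 in each genotype. Other anion channels and exchangers, not all of them apical, gave 1 lower of 5 tested in NT+/+ mice and 2 higher and 1 lower in NT-/- mice. The lower gene was *Slc4a2* in both genotypes. Genes of cyclic nucleotide signaling gave 1 higher and 2 lower of 7 in NT+/+ and 2 higher and 1 lower in NT-/- mice. Carbonic anhydrases gave 0 of 4 in either genotype by edgeR and DESeq2, with 0 and 2 at an unadjusted p under 0.05, beside 34.1% and 36.5% of all genes tested. Receptors that regulate secretion, not all of them for secretagogues, gave 0 of 5 in NT+/+ mice by both tools, with 2 at an unadjusted p under 0.05. In NT-/- mice 1 of these receptors, *Lpar2*, was higher. The WNK and SPAK kinase list, which holds *Sgk1*, gave 2 higher of 5 in each genotype. The calls in NT+/+ mice only were *Slc9a2*, *Pde5a*, and *Wnk4*, and those in NT-/- mice only were *Pdzk1*, *Prkg2*, *Lpar2*, *Oxsr1*, *Clcn2*, *Slc26a2*, and *Aqp8*. Of these 10 genes *Wnk4* had the one interaction with an unadjusted p under 0.05 (log2 fold changes of 0.62 in NT+/+ and 0.19 in NT-/- mice; log2 difference, -0.43; unadjusted p = 0.0158, edgeR adjusted p = 1.00). The log2 difference was 1.29 for *Aqp8* (95% confidence interval, -0.25 to 2.84), 0.44 for *Lpar2*, 0.42 for *Pdzk1*, 0.28 for *Prkg2*, 0.21 for *Slc9a2*, 0.15 for *Oxsr1*, 0.12 for *Slc26a2*, 0.02 for *Pde5a*, and 0.01 for *Clcn2*, each with an unadjusted p of at least 0.0960, so a difference between genotypes was not shown.

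**Figure D5:**
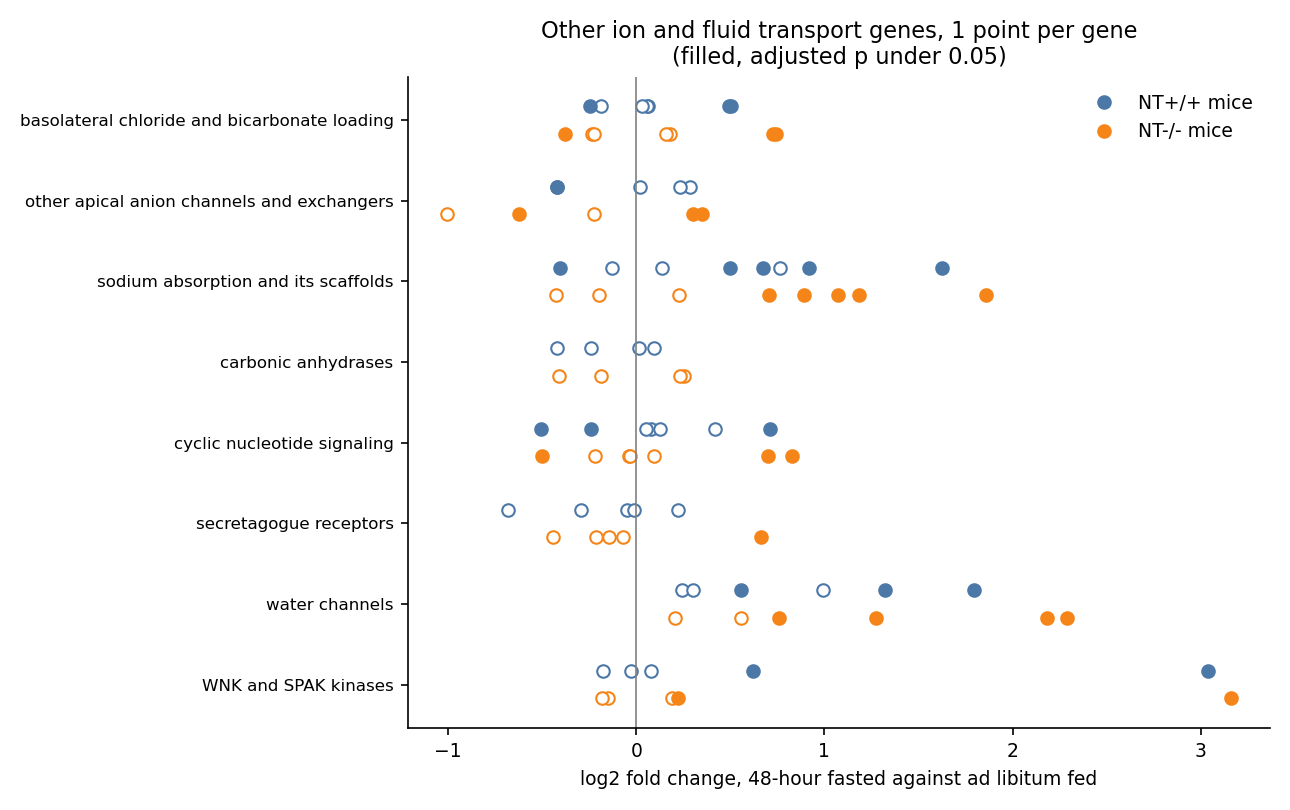
Log2 fold change of fasted against ad libitum–fed mice (horizontal axis) for 47 further transport genes in 8 lists, 1 point per gene, in NT+/+ mice (blue) and NT-/- mice (orange), filled where the adjusted p was under 0.05. *Sgk1* stands apart at 3.04 and 3.16, and no carbonic anhydrase is filled.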

How the data were processed

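RNA-seq libraries from crypts of 19 mice were analyzed, grouped by title. The authors depleted ribosomal RNA, sequenced single-end, used Trimmomatic 0.39 for trimming, and mapped reads with RSEM to Ensembl transcripts of GRCm38. They deposited RSEM's expected counts (estimated, not normalized) and effective gene lengths in bases, another unit. TPM and FPKM, also deposited, did not enter any result. The version of RSEM, its strand setting, and filters are not given in the sources used here.

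Expected counts were rounded. Genes were filtered with filterByExpr (17875 kept), scaled by TMM, and tested with edgeR 4.0.16 (quasi-likelihood, R 4.3.3) in 1 fit of all 19 mice with 4 group coefficients and Benjamini-Hochberg adjustment over all genes. Residual degrees of freedom were 15. P-values measure the spread between mice. The fit was tested on simulated data with known changes. CPM was divided by effective length for comparison between genes. No pair of libraries of a group agreed within sampling noise (lowest chi-square per degree of freedom, 15.9), and fed NT+/+ replicate 1 stood apart from its group. Correlations were also computed without it, a choice made after seeing the data. Gene symbols and positions are from GENCODE for GRCm38 (55227 of 55487 matched).

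The members and lists were chosen with earlier results of these data known. Named were the 9 members, the 3 called list genes with the greatest change in each fasting comparison, list genes called in 1 genotype with their interaction, the 3 genes most like each member (1 of them is not reported here), overlapping genes, and *Nts*. Alternatives were DESeq2 1.42.0, upper quartile scaling, other filters, replicate blocks, sex, regrouping 1 mouse, fitting only the groups compared, and leaving out each mouse.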

Additional observations from a re-analysis of the deposited data

Results flagged for a closer look

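Of 36 sets of mice examined (9 genes in 4 groups), 2 held a mouse far from the rest of its group. How many such sets would arise by chance was not tested, and the sets share mice. *Cftr* in fasted NT-/- replicate 5 was at 250 CPM, where the other 4 mice lay at 198 to 207 CPM, and without it the NT-/- fasting difference was -0.33 with an edgeR adjusted p of 0.0478. *Slc9a3* in fasted NT-/- replicate 2 was at 247 CPM, where the other 4 mice lay at 98.2 to 134 CPM, and without it the NT-/- fasting difference was -0.73 with an edgeR adjusted p of 0.00776. That library was also the shallowest, with 9059457 counts.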

How the results depend on the processing

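The number of the 9 genes called for fasting was 6 or 7 in NT+/+ and 4 to 6 in NT-/- mice across the settings other than leaving out a mouse, and 5 to 7 and 4 to 6 when each mouse was left out in turn. *Guca2b*, *Slc26a3*, *Gucy2c*, and *Kcne3* kept their call in both genotypes in every setting run. When only the compared groups were fitted in NT+/+ mice, *Cftr* was -0.34 (adjusted p = 0.0625) and *Slc9a3* -0.51 (adjusted p = 0.0302). The NT-/- call of *Slc26a6* was lost with the mouse of conflicting labels moved (0.49) and with sex as a covariate (0.60), and with sex *Cftr* passed in NT-/- mice (-0.33). The causes were not tested.

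Genotype differences close to 0 changed sign. Regrouping the mouse gave interactions of -0.066 for *Slc26a6*, -0.062 for *Slc9a3*, and -0.017 for *Guca2b*. Leaving out a mouse gave genotype differences in fed mice of -0.082 to 0.035 for *Cftr*, -0.011 to 0.12 for *Slc26a3*, and -0.045 to 0.22 for *Slc9a3*, in fasted mice of -0.0091 to 0.14 for *Cftr*, -0.15 to 0.23 for *Slc9a3*, -0.17 to 0.066 for *Guca2a*, and -0.098 to 0.043 for *Kcnq1*, and interactions of -0.0029 to 0.29 for *Slc26a6* and -0.22 to 0.16 for *Slc9a3*. None of these passed a test in any setting.

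The replicate numbers were not taken to pair the mice, although the study describes its fed controls as littermates matched for sex and age. Same-numbered mice correlated at a mean of 0.184 by title (27 pairs, lowest -0.127, 19 over 0.1) and 0.227 by the number in the deposited files' names (lowest 0.0672, 24 over 0.1), beside -0.0457 and -0.0565 for other pairs. With the title number as a block, 7 and 6 of the 9 genes were called for fasting (*Slc9a3* in NT+/+ mice, -0.48; *Cftr* in NT-/- mice, -0.33), 5006 and 5657 of all genes, and the fed genotype difference of *Cftr* was 0.044. With the file number as a block, 6 and 5 were called (*Cftr* in NT-/- mice, -0.23; *Slc26a6* no longer, 0.49), and 5484 and 5672 of all genes. Mice with the same file number were of the same sex wherever a sex label is given.

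Over all genes, the genotype comparison in fasted mice gave 1 call with edgeR and 98 with DESeq2, and 0 with at least 10 counts in every mouse or the mouse moved. In fed mice it gave 1, 3, 0, and 0. No scaling moved the median of all genes by more than 0.016 (log2). Each gene had 193 or more counts in every mouse. Without fed NT+/+ replicate 1, an alternative chosen after seeing the data, the within-group correlation that moved most was that of *Guca2a* with the villus markers (-0.37 with it, -0.07 without).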
